A study of Mus musculus with 3 samples.

Results

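The genes described here are 10 members of the circadian clock and its output, taken as the rows of the deposited gene tables whose symbol is Per1, Per2, Per3, Cry1, Cry2, Bhlhb2 (the older name of Bhlhe40), Rorb, Dbp, Tef or Hlf. All 10 were found among the 25562 genes of the tables. They were measured in neurons of the medial ganglionic eminence (MGE), an embryonic source of cortical inhibitory interneurons, dissected from C57Bl/6 mice at embryonic day 14 and kept in culture until day 10. From day 9 all cultures, the unstimulated one included, were held silent overnight with TTX, which blocks sodium channels, and AP-5, which blocks NMDA receptors. All libraries carry the tag WT in their titles. One library each was made after 0, 1 and 6 h of depolarization with 55 mM extracellular KCl, and the labels do not say how many animals or dishes went into a library.

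The mammalian clock is a feedback loop in which CLOCK and BMAL1 (Arntl) activate genes through E-box sequences, and the PER and CRY proteins made from some of those genes repress CLOCK and BMAL1. A second loop of ROR activators and REV-ERB repressors (Nr1d1, Nr1d2) acts on Arntl, and the PAR bZIP factors DBP, TEF and HLF carry the rhythm to genes with D-box sequences. In neurons Per1 and Per2 are also known as targets of calcium and cAMP signalling through CREB, the route by which light resets the clock of the suprachiasmatic nucleus.

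Uniquely mapped reads numbered 8996897, 8549377 and 8579378 after 0, 1 and 6 h, of which 2189394, 2457167 and 2480579 were sense exonic and 2123187, 1789710 and 2095060 sense intronic. Reads of the early genes Fos (21, 2901 and 877) and Npas4 (9, 802 and 163) followed the labels. Of 16 interneuron markers 15 were matched, none of them at 0 reads, and their summed level was 7864, 7603 and 9422 reads per 1000000 scaled reads. Single interneuron markers went both ways at 6 h against 0 h, from 0.560 times for Lhx6 to 1.82 times for Gad1. Their median log2 ratio was 0.04. Astrocyte and radial glia markers summed to 2905, 3029 and 3447, with 0 of 12 at 0 reads, and oligodendrocyte lineage markers to 142, 141 and 176, with 1 of 8 at 0 reads in each library. Excitatory neuron markers summed to 98.2, 63.7 and 76.4, with 4, 3 and 4 of 8 at 0 reads and nearly all of the sum from Camk2a (209, 150 and 175 reads), and dividing-cell markers to 132, 146 and 122, with 0 of 6 at 0 reads. Endothelial and mural markers summed to 12.9, 9.95 and 11.8, with 2, 2 and 1 of 6 at 0 reads, and microglia markers to at most 0.446, with 5, 5 and 6 of 6 at 0 reads. At 6 h against 0 h, Vim (2.10 times), Olig2 (2.04) and the dividing-cell marker Cdc2a (Cdk1, 2.14) met the call for higher described below, and Pdgfra (0.452) met that for lower. The part of these markers in the results was not tested, and in bulk RNA fewer cells of a type cannot be told apart from less RNA per cell.

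Because every time is 1 library, the spread between cultures is unknown and p-values are not given. Each ratio of scaled reads compares 2 libraries and carries an exact Clopper-Pearson 95% interval that covers counting error only. To be called higher a gene needed a ratio of 2 or more, and to be called lower one of 0.5 or less, in both cases with an interval that excluded 1 and with 20 reads in 1 of the 2 libraries. Levels are exonic reads per kilobase of exon per 1000000 scaled reads (RPKM).

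In exonic reads, Per1 and Per2 were higher at 1 h and at 6 h, Rorb was higher at 6 h, and Per3, Bhlhb2 and Dbp were lower at 6 h. Cry1, Cry2, Tef and Hlf met the call in neither comparison with 0 h. At 1 h against 0 h, 2 of the 10 members were called higher, where the rule called 1.58% of 10093 measured genes higher. None of the 10 was called lower, where it called 1.43% of all measured genes. At 6 h against 0 h, 3 members were called higher, beside 4.92% of 10095 measured genes, and 3 were called lower, beside 5.42%. The members' median log2 ratio was 0.08 at 1 h and 0.13 at 6 h, against 0.01 and 0.00 over all measured genes.

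**Figure D1:**
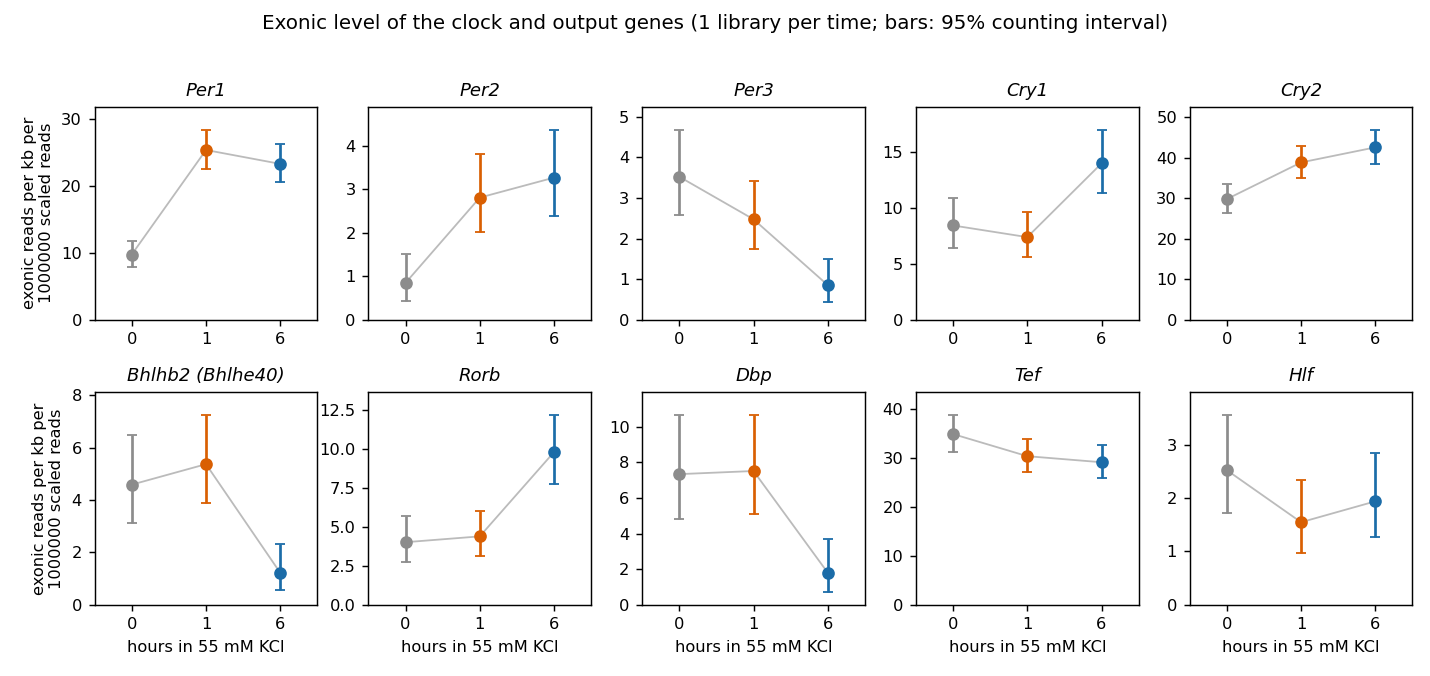
Exonic RPKM (y axis, from 0, own range in each panel) of the 10 genes by hours in KCl (x axis), 1 library per time, with bars for the 95% counting interval. Per1 and Per2 step up by 1 h, Rorb and Cry1 sit highest at 6 h, and Per3, Bhlhb2 and Dbp drop by 6 h.

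The level order changed with time both among the leading genes and below them. At 0 h Tef (34.9 RPKM) and Cry2 (29.7 RPKM) led with overlapping intervals, and Per1 followed at 9.75 RPKM. From Per1 down through Cry1, Dbp, Bhlhb2, Rorb, Per3 and Hlf each gene's interval overlapped that of the next, and Per2 was last at 0.846 RPKM. At 6 h Cry2 (42.5 RPKM) stood above Tef (29.2 RPKM), whose interval overlapped that of Per1 (23.3 RPKM). Cry1 (13.99 RPKM) and Rorb (9.81 RPKM) came next with overlapping intervals, and the other 5 members lay between 3.27 and 0.851 RPKM. From Per2 down through Hlf, Dbp and Bhlhb2 to Per3, the lowest, each gene's interval overlapped that of the next.

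Per1 and Per2 encode the PER repressors, which act in a complex with the CRY proteins. Per1 (chr11:68912451-68923462, plus strand, mm9) has 23 exons over 4670 exonic bases. It held 102, 298 and 258 exonic reads at 0, 1 and 6 h, and its levels were 9.75, 25.4 and 23.3 RPKM. Both stimulated libraries lay above the unstimulated one, at 2.61 times (2.07 to 3.30) at 1 h and 2.39 times (1.89 to 3.04) at 6 h. The 6 h to 1 h ratio was 0.918 (0.774 to 1.09). Reads that cross a splice junction, which come from spliced RNA, numbered 11, 31 and 32, and reads were found in 21, 20 and 21 of its exons.

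Per2 (chr1:93312559-93355873, minus strand, mm9) was the member with fewest exonic reads at 0 h. It held 11, 41 and 45 reads, or 0.846, 2.81 and 3.27 RPKM. Its ratios to 0 h were 3.32 (1.68 to 7.17) at 1 h and 3.87 (1.97 to 8.29) at 6 h, and the intervals of these ratios overlap those of Per1. The last exon carried 7, 17 and 26 of the reads assigned to single exons.

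Per3, a PER family member that the mouse clock can run without, went the other way. Per3 (chr4:150377764-150418731, minus strand, mm9) held 47, 37 and 12 exonic reads, or 3.52, 2.47 and 0.851 RPKM. At 1 h its ratio was 0.702 (0.444 to 1.10), which did not meet the call. At 6 h it was 4.14-fold lower than at 0 h (2.16 to 8.58) and 2.91-fold lower than at 1 h (1.48 to 6.12). With exonic and intronic reads summed, its ratio between 6 h and 1 h was 0.621, which did not meet the call.

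Cry1 and Cry2 encode the cryptochromes, the clock's main transcriptional repressors. Cry1 (chr10:84594445-84647799, minus strand, mm9) held 57, 56 and 100 exonic reads, or 8.43, 7.39 and 13.99 RPKM. Its ratio was 0.876 (0.595 to 1.29) at 1 h and 1.66 (1.19 to 2.34) at 6 h, and 1.89 (1.35 to 2.68) between 6 h and 1 h. The intervals at 6 h lay above 1 but the ratios stayed under 2. Cry2 (chr2:92243803-92274185, minus strand, mm9) held 264, 386 and 399 reads, or 29.7, 38.8 and 42.5 RPKM. It was 1.30 times its 0 h value at 1 h (1.11 to 1.53) and 1.43 times at 6 h (1.22 to 1.68), again without reaching 2-fold.

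Bhlhb2 encodes a basic helix-loop-helix repressor (also called DEC1) that binds E-boxes, and Rorb encodes a nuclear receptor that activates through ROR elements. Bhlhb2 (chr6:108610623-108616919, plus strand, mm9) held 32, 42 and 9 exonic reads, or 4.59, 5.37 and 1.22 RPKM. Its 1 h ratio was 1.17 (0.722 to 1.92), and at 6 h it was 3.76-fold lower than at 0 h (1.75 to 8.96) and 4.40-fold lower than at 1 h (2.11 to 10.3). Rorb (chr19:19011058-19185686, minus strand, mm9) held 31, 38 and 80 reads, or 4.02, 4.39 and 9.81 RPKM. Its ratio was 1.09 (0.662 to 1.82) at 1 h, 2.44 (1.59 to 3.82) at 6 h and 2.23 (1.499 to 3.38) between 6 h and 1 h. With exonic and intronic reads summed, neither call on Rorb was made: the ratio was 1.59 at 6 h against 0 h and 0.983 at 6 h against 1 h. For both genes the exonic interval at 1 h spans 1, and at 6 h Bhlhb2 lay below its 0 h value and Rorb above.

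Dbp, Tef and Hlf encode the PAR bZIP activators of D-box genes, and of the 3 only Dbp met a call in exonic reads. Dbp (chr7:52960602-52965521, plus strand, mm9), a direct E-box target of CLOCK and BMAL1, held 27, 31 and 7 exonic reads, or 7.34, 7.52 and 1.80 RPKM. At 1 h its ratio was 1.02 (0.591 to 1.78), and at 6 h it was 4.08-fold lower than at 0 h (1.73 to 11.1) and 4.18-fold lower than at 1 h (1.80 to 11.2). Tef (chr15:81633247-81657293, plus strand, mm9) held 333, 325 and 294 reads, or 34.9, 30.4 and 29.2 RPKM. Its ratios were 0.870 (0.745 to 1.02) at 1 h and 0.835 (0.711 to 0.980) at 6 h. Hlf (chr11:90197849-90252231, minus strand, mm9) held 32, 22 and 26 reads, with ratios of 0.613 (0.339 to 1.09) and 0.768 (0.440 to 1.33). For Tef the intervals bound the change well inside 2-fold. The intervals of Hlf at 1 h and at 6 h both reach below 0.5 and so do not exclude a 2-fold fall. At 6 h the interval of Dbp lay wholly below that of Tef and overlapped that of Hlf.

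**Figure D2:**
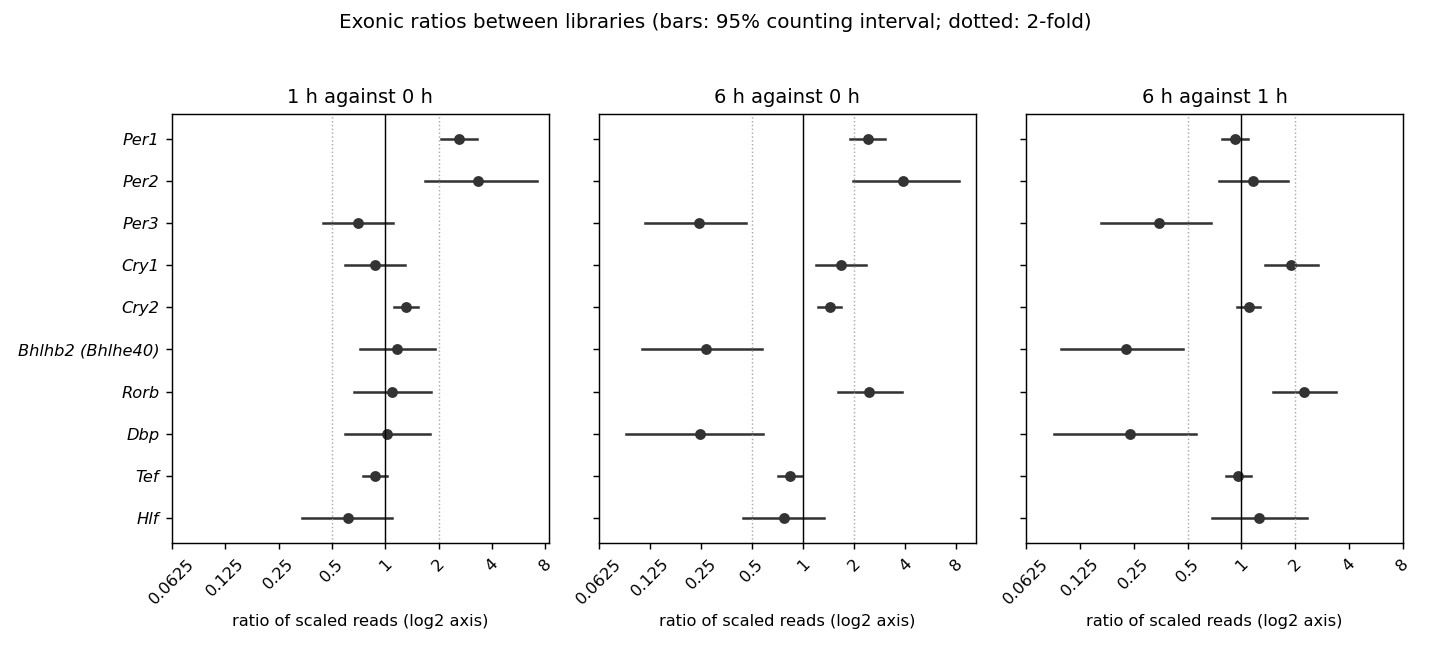
Ratio of scaled exonic reads (x axis, log2) for each of the 10 genes (rows) at 1 h against 0 h, 6 h against 0 h and 6 h against 1 h, with 95% counting intervals and dotted lines at 2-fold. The 3 genes lower at 6 h (Per3, Bhlhb2, Dbp) have ratios of 0.241 to 0.266, and the 3 higher at 6 h (Per1, Per2, Rorb) of 2.39 to 3.87.

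Between 1 h and 6 h, 1 member (Rorb) was called higher, beside 4.17% of 10137 measured genes, and 3 members (Per3, Bhlhb2, Dbp) were called lower, beside 4.63%. The 3 lower members each held under 50 exonic reads in every library, and their 6 h values rest on 12, 9 and 7 reads. With a minimum of 50 reads they would not be measured, and neither would Per2. Per1, Per2 and Rorb were called at 6 h with 258, 45 and 80 reads.

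**Figure D3:**
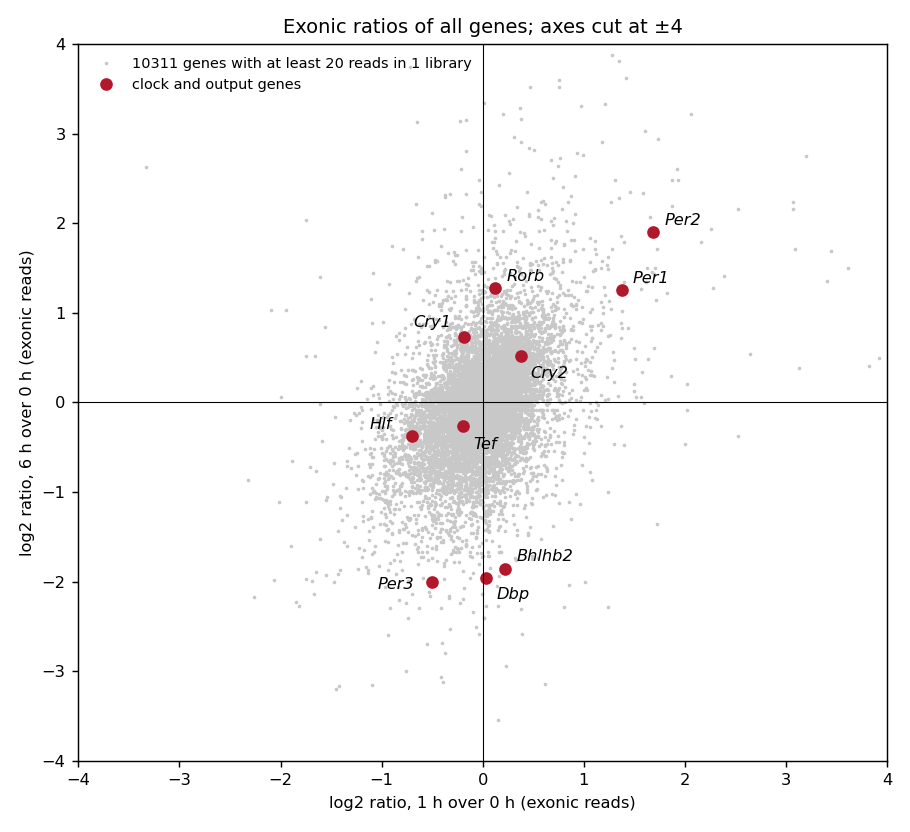
Log2 exonic ratio at 6 h over 0 h (y axis) against 1 h over 0 h (x axis) for 10311 genes with at least 20 exonic reads in 1 library (grey; 23 lie outside the axes) and the 10 clock and output genes (red). Per1 and Per2 sit high on both axes, and Per3, Bhlhb2 and Dbp lie near -2 on the y axis only.

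The genes whose pair of log2 ratios lay nearest to a member's, among 5746 or 5747 genes with at least 100 exonic reads in 1 library, were taken for the 6 members called against 0 h. Both axes share the 0 h library, and 3 libraries fix each pattern, so the likeness is a description. Nearest to Per1 were Arl5b, Sc4mol (Msmo1) and Srf, at distances of 0.0953 to 0.257, and nearest to Per2 were Ifrd1, Snf1lk (Sik1) and Gla, at 0.171 to 0.453. Nearest to Per3 were Ptpru, 1200009O22Rik (Tril) and Txnip, of which Ptpru held 151, 119 and 39 reads. Lrrc61 was among the 3 nearest to both Dbp and Bhlhb2, as were Cxcr7 (Ackr3) for Bhlhb2 and 1600014C10Rik for Dbp. Nearest to Rorb were Gm88 (Lrrc73), Rgs7bp and Scn1a, at 0.0277 to 0.0756.

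Intronic reads come mostly from RNA that is not yet spliced, and they were compared next. In the library as a whole, intronic reads per exonic read differed between times, so each intronic ratio depends on whether introns are scaled to all introns or to exons. Scaled to all introns, Per1, Per2, Cry1, Cry2 and Rorb were called higher at 1 h against 0 h, which is 5 of 8 measured members beside 7.48% of 8143 measured genes, and none was called lower, beside 6.19%. Scaled to exons, Per1, Per2 and Cry2 were still called higher, beside 2.59% of all measured genes, and Cry1 and Rorb were not. On that scale Per3 was called lower, 1 of 8 members beside 27.2% of all measured genes, so a lower call there is common. The introns of Dbp and Bhlhb2 held at most 10 reads in any library and were not measured.

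Per1 introns held 14, 56 and 32 reads at 0, 1 and 6 h, and their 1 h ratio was 5.44 (2.99 to 10.6) on the intron scale and 3.57 (1.96 to 6.94) on the exon scale. Per2 introns held 23, 76 and 36 reads, with ratios of 4.50 (2.79 to 7.52) and 2.95 (1.83 to 4.92). Cry2 introns held 79, 210 and 97 reads, with ratios of 3.62 (2.78 to 4.75) and 2.37 (1.82 to 3.11). In all 3 genes the 1 h library held most intronic reads and the 6 h library lay between it and the 0 h library.

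Cry1 introns held 35, 68 and 64 reads, with 1 h ratios of 2.64 (1.73 to 4.10) on the intron scale and 1.73 (1.14 to 2.68) on the exon scale. Rorb introns held 213, 338 and 295 reads, with ratios of 2.16 (1.81 to 2.58) and 1.42 (1.19 to 1.69). Both genes thus kept an interval above 1 on either scale but passed 2-fold on one of them. Per3 introns held 43, 17 and 22 reads, with ratios of 0.538 (0.288 to 0.963) and 0.353 (0.189 to 0.631). Tef introns held 168, 110 and 107 reads, with ratios of 0.891 (0.694 to 1.14) and 0.584 (0.455 to 0.747), and Hlf introns held 31, 25 and 14.

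At 6 h against 0 h, 2 of 8 members (Per1 at 2.56 and Cry1 at 2.05) were called higher on the intron scale, beside 5.27% of 8236 measured genes, and none was called lower, beside 5.59%. On the exon scale Per1 (2.16) was called higher, beside 3.08% of all measured genes, and Per3 and Hlf were called lower, at 2.07-fold and 2.34-fold, beside 10.5%. At 6 h against 1 h, none was called higher, beside 7.07% of 7734 measured genes, and Per1, Per2, Cry2 and Hlf were called lower on the intron scale by 2.12-fold, 2.56-fold, 2.63-fold and 2.17-fold, beside 5.79%. On the exon scale Cry2 alone was called lower, at 2.04-fold, beside 2.65% of all measured genes, and none was called higher, beside 15.5%. The members' median intronic log2 ratio was 1.25 at 1 h against 0 h, 0.55 at 6 h against 0 h and -0.78 at 6 h against 1 h, beside -0.05, 0.05 and 0.04 over all measured genes.

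**Figure D4:**
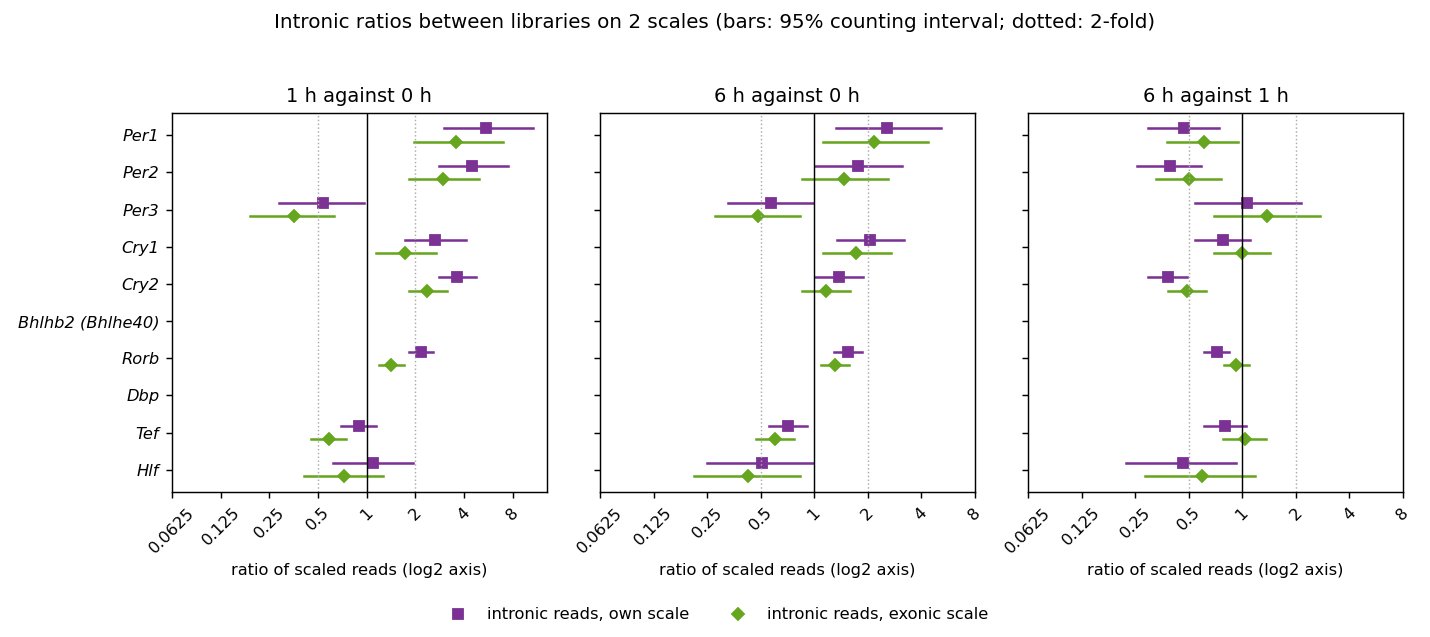
Ratio of scaled intronic reads (x axis, log2) for the 8 members with enough intronic reads (rows; Bhlhb2 and Dbp are blank), on the scale of all introns (purple squares) and of exons (green diamonds), with 95% counting intervals. At 1 h Per1, Per2 and Cry2 lie above 2 on both scales, and at 6 h against 1 h the Cry2 points lie below 0.5 on both.

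The change in intronic reads was then set against the change in exonic reads of the same gene, relative to the library-wide shift. That shift was taken from the exonic and intronic totals after scaling (TMM factors, described below), not from the totals as counted. The values relative to it therefore depend on those factors. At 1 h against 0 h the interval lay above 1 for 4 of 8 measured members, beside 19.1% of 7363 genes with 20 exonic and 20 intronic reads in 1 of the 2 libraries, and below 1 for 0, beside 11.7%. The intronic over exonic ratio was 3.01 (1.68 to 5.44) for Cry1, 2.77 (2.03 to 3.81) for Cry2, 2.09 (1.09 to 4.24) for Per1 and 1.97 (1.15 to 3.37) for Rorb. For Per2, whose introns and exons were both called higher, it was 1.35 (0.539 to 3.24). Taken as counted, without the library-wide shift of 1.53, the intervals of Cry1 and Cry2 stayed above 1, beside 4.69% of genes, those of Per1 and Rorb did not, and that of Tef lay below 1, beside 44.5%.

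Between 6 h and 1 h the interval lay below 1 for 6 of 8 members, beside 19.4% of 7123 genes, and above 1 for 1 member, beside 14.8%. Both comparisons use the same 1 h library, so their values stand side by side and neither bears out the other. The intronic over exonic ratio was 0.323 (0.206 to 0.497) for Rorb, 0.337 (0.180 to 0.624) for Per2, 0.347 (0.260 to 0.463) for Cry2, 0.410 (0.248 to 0.675) for Cry1 and 0.513 (0.311 to 0.835) for Per1. Hlf had 0.371 (0.141 to 0.951), and Per3 stood opposite at 3.05 (1.14 to 8.52). As counted, 4 intervals lay below 1, beside 8.96% of genes, and that of Per3 above 1, beside 33.2%, and those of Per1 and Hlf spanned 1. At 6 h against 0 h no member's interval relative to the library-wide shift excluded 1, where 13.5% of 7452 genes lay above and 9.04% below. As counted, the intervals of Per2, Rorb and Tef lay below 1, and the share of all genes was not computed. Rorb had 6.87, 8.89 and 3.69 intronic reads per exonic read at 0, 1 and 6 h, Cry2 had 0.299, 0.544 and 0.243, and Cry1 had 0.614, 1.21 and 0.640.

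Reads of single introns are given as counted, and whether introns of a gene differed in their course was not tested. Cry2 intron 1 held 18, 53 and 19 reads, intron 2 held 16, 28 and 18, and intron 11, the last, held 22, 88 and 43, so the 1 h library held most reads at both ends of the gene. Rorb intron 1, which spans 109434 bases, held 173, 281 and 221 of the gene's 213, 338 and 295 intronic reads, while intron 5 held 19, 21 and 26. Cry1 intron 1 held 16, 31 and 35 reads and intron 10 held 10, 21 and 11. In Tef, intron 1 held 28, 11 and 5 reads, and intron 3 held 129, 80 and 89. Per1 had reads in 8, 16 and 9 of its 22 introns.

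**Figure D5:**
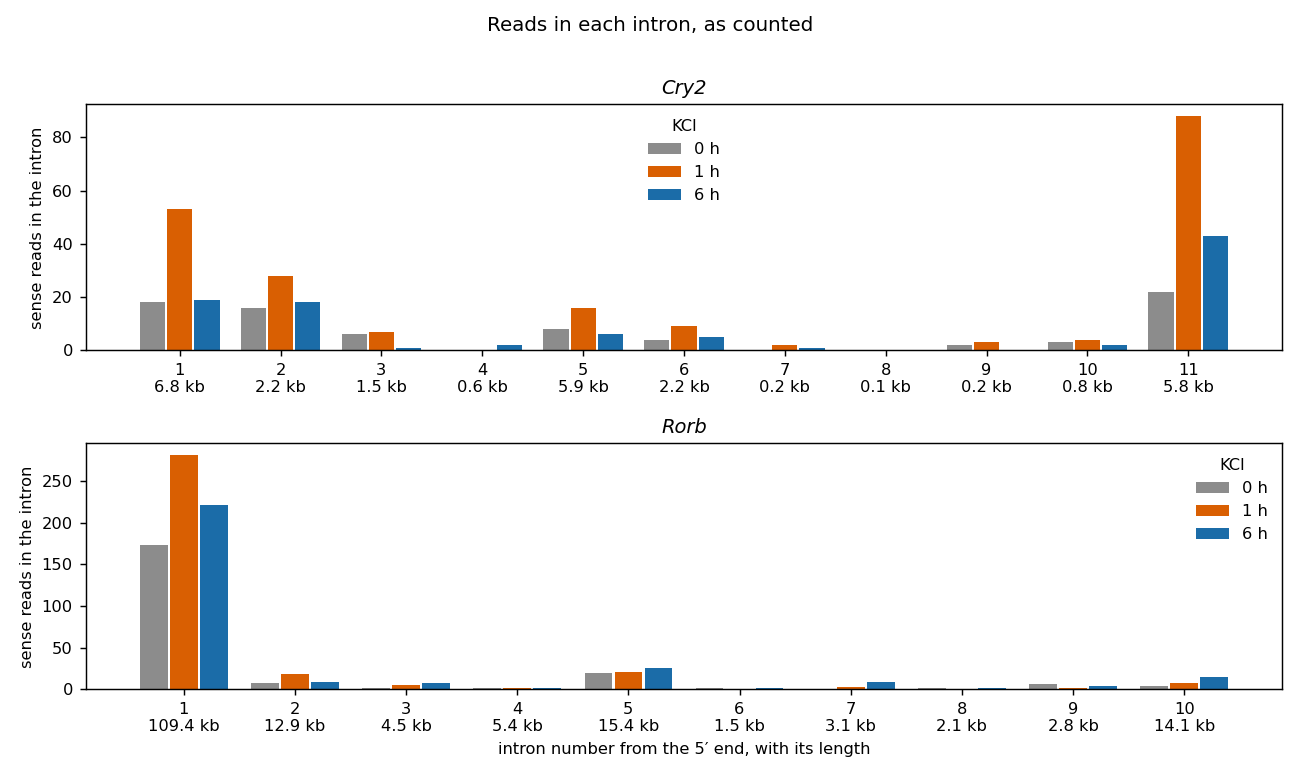
Sense reads as counted (y axis, from 0) in each intron of Cry2 and Rorb (x axis, numbered from the 5′ end with its length) at 0, 1 and 6 h of KCl. The 1 h bars stand highest in Cry2 introns 1, 2 and 11 and in Rorb intron 1.

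No member overlaps another gene model on either strand. Antisense reads in members' introns numbered 37, 17 and 15, or 9.21, 4.23 and 3.73 per 100 kb, below the 22.1, 18.2 and 18.2 per 100 kb of 18600 genes free of overlaps. Antisense exonic reads of the members numbered 11, 3 and 0.

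Start regions, 250 bases before to 50 after an annotated start, were read from RefSeq on GRCm38.p6, another build than that of the reads. They cover 11 starts of 8 members, and Per2 and Bhlhb2 have none there. Searched on both strands were the cAMP response element TGACGTCA and its short form TGACG (the full element holds the short form on each strand), the E-box CACGTG and its variant CACGTT, the D-boxes TTATGTAA and TTACGTAA, and the ROR core AGGTCA. Shown are the starts of Per1, higher at both times, Cry2, whose introns rose at 1 h, Per3, lower at 6 h, and Hlf, which holds the full cAMP response element and met no exonic call. Capitals mark the matches.
Per1, first start (chr11:69098699-69098998, plus strand): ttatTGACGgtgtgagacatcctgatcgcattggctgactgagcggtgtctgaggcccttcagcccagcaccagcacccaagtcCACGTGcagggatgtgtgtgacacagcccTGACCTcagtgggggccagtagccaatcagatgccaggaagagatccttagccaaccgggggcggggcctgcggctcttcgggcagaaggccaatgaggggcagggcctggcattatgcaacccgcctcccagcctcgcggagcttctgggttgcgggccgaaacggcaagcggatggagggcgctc
Cry2 (chr2:92434020-92434319, minus strand): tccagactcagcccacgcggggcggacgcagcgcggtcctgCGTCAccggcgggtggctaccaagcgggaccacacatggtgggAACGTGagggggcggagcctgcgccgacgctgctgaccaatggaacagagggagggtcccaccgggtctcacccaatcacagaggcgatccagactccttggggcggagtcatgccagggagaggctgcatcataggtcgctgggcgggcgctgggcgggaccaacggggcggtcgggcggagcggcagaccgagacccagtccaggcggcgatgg
Per3 (chr4:151044616-151044915, minus strand): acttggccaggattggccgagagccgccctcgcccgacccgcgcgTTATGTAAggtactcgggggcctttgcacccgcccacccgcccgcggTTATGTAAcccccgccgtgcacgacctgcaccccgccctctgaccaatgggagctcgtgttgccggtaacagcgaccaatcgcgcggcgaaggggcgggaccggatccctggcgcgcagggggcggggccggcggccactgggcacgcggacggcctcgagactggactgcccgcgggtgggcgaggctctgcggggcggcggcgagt
Hlf (chr11:90390868-90391167, minus strand): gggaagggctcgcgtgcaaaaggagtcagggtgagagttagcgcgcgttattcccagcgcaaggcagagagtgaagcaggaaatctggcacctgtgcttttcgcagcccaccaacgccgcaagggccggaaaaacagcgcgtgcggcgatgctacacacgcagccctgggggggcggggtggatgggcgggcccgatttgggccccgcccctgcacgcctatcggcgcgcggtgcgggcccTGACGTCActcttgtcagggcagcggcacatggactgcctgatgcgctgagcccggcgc

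The Per1 window holds TGACG at -246, CACGTG at -166 and AGGTCA on the reverse strand at -137, and its second start holds TGACG at -132. The Cry2 window holds TGACG and CACGTT, both on the reverse strand, at -209 and -166. The Per3 window holds TTATGTAA at -205 and at -158, a motif found in 0.938% of 32851 windows. The Hlf window holds TGACGTCA at -9, which 1.79% of windows hold, against 20.8% for TGACG, 7.15% for CACGTG, 4.68% for CACGTT, 0.119% for TTACGTAA and 16.3% for AGGTCA. The Cry1 window holds CACGTG at -60, CACGTT at -79 and TGACG at -8, both Tef windows hold CACGTG, at -127 and -138, and the second Rorb start holds CACGTT at -234. No motif searched was found in the Dbp window or at the first Rorb start. A match describes these letters only.

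Of 38 other clock genes, 29 were measured at 1 h against 0 h. Of these, 1 was called higher, beside 1.58% of all measured genes, and 0 lower, beside 1.43%. The list's median log2 ratio was -0.06, against 0.01 over all measured genes. The gene called higher was Snf1lk (Sik1), a kinase that restrains CREB coactivators, with 107, 391 and 322 reads. Its ratio was 3.26 (2.63 to 4.07) at 1 h and 2.85 (2.28 to 3.58) at 6 h. At 6 h against 0 h, 4 of 30 measured were called higher, beside 4.92% of all measured genes, and 0 lower, beside 5.42%. The list's median log2 ratio was then 0.21, against 0.00 over all measured genes. Nfil3, the repressor that competes with the PAR bZIP factors for D-boxes, held 50, 98 and 181 reads, at 3.42 times its 0 h value (2.49 to 4.78). Pbef1 (Nampt), an enzyme of NAD salvage, held 110, 183 and 278 reads, at 2.39 times (1.91 to 3.01). Prok2, a secreted output peptide of the suprachiasmatic nucleus, held 3, 4 and 34 reads, at 10.7 times (3.37 to 54.5).

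Arntl, whose product BMAL1 pairs with CLOCK, held 54, 39 and 105 reads and was called higher at 6 h against 1 h, at 2.85 times (1.96 to 4.24), with 1.84 (1.31 to 2.60) at 6 h against 0 h. Clock held 216, 309 and 432 reads, at 1.89 times its 0 h value at 6 h (1.60 to 2.24). Nr1d1 held 42, 49 and 26 reads and Nr1d2 held 54, 70 and 50, and neither met a call. Between 6 h and 1 h, 2 of 29 measured genes (Arntl, and Prok2 at 9.01 times, 3.21 to 34.96) were called higher, beside 4.17% of all measured genes. Called lower was 1 of 29, beside 4.63%: Sirt1, an NAD-dependent deacetylase, at 2.59-fold with 49, 96 and 35 reads. The lowest measured ratios to 0 h were those of Fbxl21 at 1 h, 0.504 (0.235 to 1.04), and Rora at 6 h, 0.504 (0.257 to 0.955).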

How the data were processed

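Per the labels' protocols, total RNA was depleted of ribosomal RNA, fragmented, ligated with its direction kept and sequenced on a SOLiD instrument. Per the submitters' processing notes the genome build was mm9; for the aligner, no name was given in the sources used here. Per the file headers, the authors' deposited counts are whole reads per gene, by strand, exon and intron, from reads of 35 bases mapped uniquely with at most 3 mismatches, repeated reads kept. The authors' coverage signal, scaled to 10000000 mapped reads, served as an alternative only. Reads carry no molecular identifiers, so intervals cover counting error only.

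Exonic and intronic counts were each scaled with TMM factors (edgeR 4.0.16, R 4.3.3), and intronic counts also with the exonic factors. Ratios, intervals and calls were computed in Python 3.11.15 (pandas 2.3.3, numpy 2.4.6, scipy 1.17.1; figures with matplotlib 3.10.9), and log2 ratios used a pseudocount of 0.5 reads. The procedure was tested on data simulated with counting error only. Changes were placed only in genes expected, before the change, to hold 20 reads or more in both libraries. The simulation therefore does not bear on spread between cultures or on changes in genes with fewer reads. A count of 0 allows up to 3 reads. Alternatives were DESeq2 1.42.0 size factors, total and all mapped reads, other read and fold minimums, and summed exonic and intronic reads. Members and lists were chosen with earlier results of these data known. The text names all members, other clock genes that met a call or were extreme, and the 3 genes nearest to each called member, of which 1 gene is not reported here; the values of Clock, Nr1d1 and Nr1d2 were added after they were seen. Symbols were matched through a GRCm38.p6 gene table that held 22521 of 25562 identifiers; 94 list entries matched by symbol, 7 by gene identifier, and 1 (Dlx6) was not matched.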

Additional observations from a re-analysis of the deposited data

Results flagged for a closer look

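The 500 bases downstream of Per1, which no comparison above uses, held 2, 4 and 0 sense reads at 0, 1 and 6 h. The 4 reads at 1 h passed the 3 reads that a count of 0 allows, while the 0 h library held 2. Antisense, upstream and downstream reads of all members were scanned at 1 h and 6 h, and only this entry was flagged. The share of all genes that would be flagged was not computed, and a difference between 4 and 2 reads was not tested.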

How the results depend on the processing

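No paired analysis was possible because each time has 1 library, and for the same reason no library could be left out. Of 270 alternative values of the members' exonic and intronic ratios, 250 stayed within the counting interval, 19 moved beyond it and 1 reversed. Only a ratio that had met a call could count as reversed: Rorb at 6 h against 1 h was 0.983 with exonic and intronic reads summed. Ratios without a call could cross 1 and were counted as within or beyond the interval. Examples at 6 h against 1 h with reads summed were Hlf (1.25 to 0.839, within) and Per2 (1.16 to 0.682, beyond). With reads summed, 0 members were called higher and 2 lower at 6 h against 1 h, beside 468 and 394 of 11190 genes. At 6 h against 0 h, 2 were then called higher, beside 536 of 11382 genes. With a minimum of 50 reads, 1 member was higher at 1 h against 0 h, beside 82 of 7780 genes. At 6 h against 0 h or 1 h, 0 were then lower, beside 235 of 7759 and 229 of 7895 genes. Per2, Per3, Bhlhb2 and Dbp hold fewer than 50 reads. At 1.5-fold, 2 members were higher at 6 h against 1 h. In introns at 1 h against 0 h, 1 of 8 members was lower under total reads, all mapped reads, 1.5-fold or exonic factors. The same settings called 836, 1276, 1042 and 2214 of 8143 genes lower. Under exonic factors 3 members were higher, beside 211 of the 8143 genes. In introns at 6 h against 0 h, 1 member was higher under total reads, all mapped reads, 50 reads or exonic factors and 4 at 1.5-fold. Beside these stood 330, 359, 260, 254 and 1089 genes, of 8236 measured at the 20-read minimum. Lower were 1 member under total or all mapped reads and 2 at 1.5-fold or exonic factors. Beside these stood 683, 598, 896 and 861 of the 8236 genes. In introns at 6 h against 1 h, 2 members were lower under all mapped reads and 1 under exonic factors, beside 246 and 205 of 7734 genes. As counted, 3 members' intronic over exonic intervals lay below 1 at 6 h against 0 h. They were Per2 at 0.386 (0.149 to 0.953), Rorb at 0.537 (0.330 to 0.857) and Tef at 0.722 (0.534 to 0.972). The share of all genes was not computed there. Of the other clock genes, 3 were higher at 1 h under all mapped reads and 3 lower at 6 h against 0 h under total reads. The cause was not tested.

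The share of all called exonic genes that were higher was 52.5% at 1 h against 0 h (85.1% under all mapped reads, 84.7% with the authors' coverage, 41.5% at 1.5-fold). It was 47.6% at 6 h against 0 h (35.6% under total reads, 64.5% under mapped reads, 63.4% with coverage, 60.0% at 50 reads) and 47.4% at 6 h against 1 h (35.4%, 35.99% and 36.4% under total reads, mapped reads and coverage). For introns it was 54.7% at 1 h against 0 h (33.5% under total reads, 19.0% under mapped reads, 8.70% under exonic factors, 66.9% at 50 reads), 48.5% at 6 h against 0 h (32.6%, 37.5%, 22.8% and 59.4%) and 55.0% at 6 h against 1 h (80.2% under mapped reads, 85.4% under exonic factors). All mapped reads shifted the exonic median log2 ratio by 0.24 at 1 h and 0.15 at 6 h against 0 h, and exonic factors shifted the intronic median by -0.61 at 1 h against 0 h, -0.25 at 6 h against 0 h and 0.36 at 6 h against 1 h. The intronic medians also shifted by -0.20 (1 h) and -0.15 (6 h) under total reads and by -0.37 at 1 h against 0 h and 0.27 at 6 h against 1 h under mapped reads.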
